A study of Homo sapiens with 3 samples.

Results

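This account covers 28 human genes of cholesterol synthesis, its control by sterol regulatory element-binding proteins (SREBPs), and cholesterol transport and storage, picked by symbol from the 30923 genes of the deposited table. Of these 28 genes, 19 encode enzymes from acetoacetyl-CoA to cholesterol and 9 encode SREBP regulators or cholesterol handling proteins. The libraries come from QBC-939, a human bile duct cancer (cholangiocarcinoma) cell line of wild-type genotype per the labels. Of its 3 cultures, 1 was made to overexpress miR-182-5p, 1 miR-183-5p, and 1 a control that the labels call NC, which is not described further. The titles of both microRNA libraries end in "mim", and how the RNAs were introduced or when cells were harvested is not given in the sources used here. Each group is 1 library, so no test between conditions was possible: a ratio below compares 2 libraries, and its 95% interval (exact, Clopper-Pearson) covers counting error only.

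Cells build cholesterol from acetyl-CoA through mevalonate, the isoprenoid diphosphates and squalene. When membranes hold little sterol, SCAP carries the SREBPs from the endoplasmic reticulum to the Golgi, where they are cut and released to switch on the genes of this pathway, whereas INSIG proteins hold SCAP back when sterol is plentiful. Liver and bile duct cells also handle cholesterol taken up as lipoprotein, which NPC1 and NPC2 move out of lysosomes and SOAT1 stores as ester.

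Gene counts per library summed to between 61709874 and 67427313, and the lowest count of any of the 28 genes was 616. Levels are given as CPM, the count scaled to a common library total. The mitochondrial genome supplied 13.5% of NC counts and 16.1% to 16.7% of those with a microRNA, a share that enters the CPM of every other gene. Epithelial markers were present in all 3 libraries (6 of 6 with an FPKM of at least 1, summed level 5178 to 6303 CPM), although the biliary keratin KRT7 had only 4.99 to 6.96 CPM. Hepatocyte markers summed to 0.899 to 1.17 CPM over 5 genes and endothelial markers to 1.24 to 2.22 CPM over the 2 of 4 fixed genes in the file. Fibroblast markers summed to 14.1 CPM in NC, 15.96 with miR-183-5p and 23.1 with miR-182-5p over 3 of 6 fixed genes, mostly from COL1A1. Of the immune markers, 4 of 5 were in the file and LYZ, which glandular epithelium also makes, accounted for nearly all of their summed 1452 to 1600 CPM, whereas the leukocyte gene PTPRC had 9 counts with miR-182-5p and 0 in each of the others. The part of these markers in the results was not tested.

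The mature microRNAs are shown first because their seeds (bases 2 to 8 from the 5′ end, in capitals) decide which messages could pair with each. Both sequences are from RefSeq, GRCh38.p14, on the minus strand at chr7:129770447-129770470 for miR-182-5p and chr7:129774967-129774988 for miR-183-5p.
miR-182-5p: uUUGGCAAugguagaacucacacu
miR-183-5p: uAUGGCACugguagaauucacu
Counted from the 5′ end, the first 8 bases differ by U2A and A8C, with the miR-182-5p base first.

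The 3′ UTRs of the 28 genes were searched for matches to both seeds. A 7-base match to the miR-182-5p seed was found in 5 of 28 genes (17.9%), beside 15.1% of the 10798 measured genes searched, and a match to the miR-183-5p seed in 0 of 28, beside 12.2%. The longest annotated 3′ UTR of each gene in GENCODE release 29 was read, with a median of 1116 bases for the 28 genes and 1313 for all. Only 7-base seed matches in that 3′ UTR were searched, so other places where either microRNA could pair are not covered. The 5 matches are shown with their surroundings (GRCh38, sense strand, match in capitals). They lie at chr16:88652284-88652312 (minus) in MVD, chr10:1039398-1039426 (minus) in IDI1, chr7:92113321-92113349 (minus) in CYP51A1, chr11:121308410-121308438 (plus) in SC5D and chr7:155310039-155310067 (plus) in INSIG1.
MVD: gcaccagcgctTTGCCAAgatgggatggg
IDI1: tggtcaaaccaTTGCCAActcctttaagg
CYP51A1: actcatcgctcTTGCCAAataagttcagg
SC5D: aaaggaaataaTTGCCAAatacctaggcc
INSIG1: tgaggatttttTTGCCAAtagtttataga
In CYP51A1 and SC5D the match is followed by an A, which makes it an 8-base site (2 of 28 genes, 7.14%, beside 6.52% of all). The CPM ratios of the 5 genes for miR-182-5p against NC were 1.04 for MVD, 1.01 for IDI1, 1.002 for CYP51A1, 1.19 for SC5D and 1.31 for INSIG1; with TMM scaling (trimmed mean of M values) MVD, IDI1 and CYP51A1 turned to 0.996, 0.968 and 0.961. A match is a description of the sequence and was not tested for pairing.

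All 28 genes reached an FPKM of at least 1 in each library. Compared per length, as the mean deposited FPKM of the 3 libraries, the levels ran from 2.62 for the sterol reductase TM7SF2 to 69.6 for squalene epoxidase SQLE. After SQLE came DHCR7 (48.1), CYP51A1 (43.8), FDPS (43.7) and EBP (40.1), while MVK (3.56), HSD17B7 (4.35), SC5D (4.98), GGPS1 (6.30) and INSIG2 (6.52) were, with TM7SF2, the lowest. Neighbours such as CYP51A1 and FDPS changed places between libraries: CYP51A1 had an FPKM of 43.9 in NC and 44.6 with miR-182-5p, and FDPS 41.7 and 46.8.

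**Figure D1:**
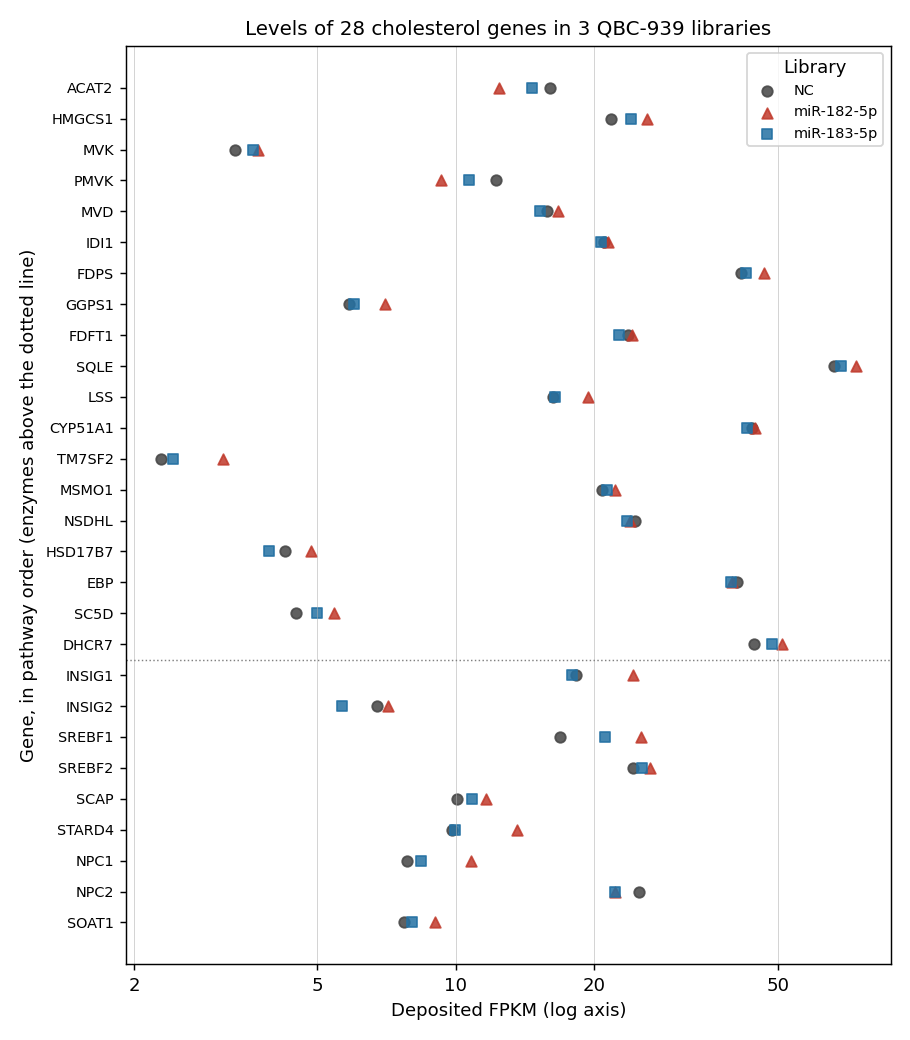
Deposited FPKM (log axis) of the 28 genes in pathway order, with 1 point per library (circle NC, triangle miR-182-5p, square miR-183-5p) and no error bars since each group is 1 library. SREBF1 is lowest in NC (16.8) and highest with miR-182-5p (25.3), and the levels span from TM7SF2 to SQLE.

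The first comparison set the miR-182-5p library against NC. The genes were mostly a little higher: 23 of 28 CPM ratios were above 1 and 5 below, beside 48.8% of all measured genes above 1. With TMM or median-of-ratios scaling these counts were 19 and 9, where MVD, IDI1, FDFT1 and CYP51A1 turned. With mitochondrially encoded genes left out of the total they were 25 and 3, where NSDHL and EBP turned. The share of all genes above 1 is given for CPM alone. The interval lay above 1 for 19 of 28 genes (67.9%), beside 36.3% of the 13267 genes measured in these libraries. It lay below 1 for 3 (10.7%), beside 38.5%. The differences were small. At least 1.2-fold higher were 5 of 28 (17.9%), beside 24.3% of all measured genes, and at least 1.2-fold lower were 2 (7.14%), beside 20.5%. With mitochondrially encoded genes left out of the total, 10 of 28 (35.7%) were at least 1.2-fold higher, beside 28.4% of all, so which share is larger depends on this choice. The median ratio was 1.11 (0.15 on the log2 scale), beside -0.01 on the log2 scale for all measured genes; with TMM scaling these log2 medians were 0.0862 and -0.07. Without a replicate library, the spread between cultures is unknown and a difference of this size cannot be told from it.

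The enzymes that make mevalonate and the isoprenoids went both ways. HMGCS1, the cytosolic synthase that makes HMG-CoA, had 173 CPM in NC, 205 with miR-182-5p and 188 with miR-183-5p, which is 1.18 times NC (1.155 to 1.22) in the miR-182-5p library. ACAT2, the thiolase that feeds it, was lower in both microRNA libraries, with 50.9 CPM in NC, 38.9 with miR-182-5p and 45.8 with miR-183-5p, a ratio of 0.764 (0.724 to 0.805) for miR-182-5p. ACAT2 overlaps TCP1 on the opposite strand by 615 bases. TCP1 had 259 CPM in NC (16722 counts), 191 with miR-182-5p (11775 counts) and 229 with miR-183-5p. Its ratio to NC was 0.736 with miR-182-5p and 0.885 with miR-183-5p, beside 0.764 and 0.899 for ACAT2. Since strand handling is not given, shared reads cannot be told apart, and their part in the ACAT2 ratios was not tested. As counted, ACAT2 was lower and HMGCS1 higher in the miR-182-5p library.

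Both mevalonate kinases act in sequence but differed in direction. MVK, which adds the first phosphate, had 26.0 CPM in NC, 28.7 with miR-182-5p and 27.99 with miR-183-5p (1.11 times NC, 1.03 to 1.18, for miR-182-5p). PMVK, which adds the second, had 14.7, 11.02 and 12.7 CPM in the same order, the lowest ratio of the 28 genes at 0.750 (0.679 to 0.828). PMVK also has the shortest implied length of the 28 genes (1204 bases, CPM over FPKM in the NC library). MVD, the decarboxylase that makes isopentenyl diphosphate, had 89.8 CPM in NC, 93.2 with miR-182-5p and 85.3 with miR-183-5p (1.04, 1.001 to 1.08, for miR-182-5p).

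The isomerase IDI1 was nearly level, at 109.5 CPM in NC, 110.45 with miR-182-5p and 106 with miR-183-5p (1.01, 0.9752 to 1.04). FDPS, which makes farnesyl diphosphate, had 186 CPM in NC, 206 with miR-182-5p and 188 with miR-183-5p (1.11, 1.08 to 1.13). GGPS1, which extends it to geranylgeranyl diphosphate for protein prenylation, had 26.9, 31.8 and 27.2 CPM in the same order (1.18, 1.11 to 1.26). GGPS1 shares 15963 bases on its strand with TBCE and 868 bases on the opposite strand with ARID4B. With miR-182-5p, TBCE was at 0.925 times NC and ARID4B at 1.31. The reads of GGPS1 are therefore not assigned with certainty, and the part of these partners in its ratio was not tested. Of these 8 enzymes, 5 had CPM intervals above 1 and 2 below 1 for miR-182-5p against NC, beside 36.3% and 38.5% of all measured genes.

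In CPM, none of the 11 sterol enzymes, from squalene onward, had an interval below 1 in the miR-182-5p library, and 7 had one above 1. Of all measured genes 38.5% and 36.3% did. With TMM scaling the ratios of FDFT1, CYP51A1, NSDHL and EBP were 0.966, 0.961, 0.925 and 0.924, so these counts hold in CPM alone. FDFT1, squalene synthase, had 148 CPM in NC, 149 with miR-182-5p and 139 with miR-183-5p (1.01, 0.978 to 1.04). SQLE, which oxidises squalene and is a rate-limiting step, had 342, 377 and 350.1 CPM in the same order (1.102, 1.08 to 1.12). LSS, which closes the ring to lanosterol, was higher with miR-182-5p and level with miR-183-5p: 142 CPM in NC, 166 with miR-182-5p and 141 with miR-183-5p (1.17, 1.14 to 1.21).

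CYP51A1, the lanosterol demethylase, had a ratio whose interval includes 1, with 186 CPM in NC, 187 with miR-182-5p and 179 with miR-183-5p (1.002, 0.976 to 1.03). TM7SF2, a reductase of the next step, had 616 counts in NC, 790 with miR-182-5p and 670 with miR-183-5p. These were the fewest of the 28 genes in NC and with miR-183-5p, whereas PMVK had fewer (680) with miR-182-5p. TM7SF2 had the largest ratio among the enzymes, at 1.34 (1.21 to 1.49). MSMO1, the methylsterol oxidase, had 71.3 CPM in NC, 75.1 with miR-182-5p and 71.8 with miR-183-5p (1.05, 1.01 to 1.098). NSDHL, the dehydrogenase that works with MSMO1 to remove methyl groups, had 58.7, 56.5 and 55.8 CPM in the same order (0.964, 0.920 to 1.01). The interval of NSDHL includes 1, and its ratio was 1.002 with mitochondrially encoded genes left out.

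HSD17B7, the reductase that ends demethylation, was highest with miR-182-5p: 24.6 CPM in NC, 27.6 with miR-182-5p and 22.3 with miR-183-5p (1.12, 1.05 to 1.203). Its copy HSD17B7P2 had 433, 632 and 595 counts, so reads of HSD17B7 may be split between both. EBP, the sterol isomerase, had 86.7 CPM in NC, 83.5 with miR-182-5p and 83.0 with miR-183-5p (0.963, 0.927 to 1.0004), and its miR-182-5p ratio was 1.001 with mitochondrially encoded genes left out. SC5D, the desaturase that follows, was higher in both, at 54.3, 64.8 and 59.7 CPM (1.19, 1.14 to 1.25). DHCR7, the reductase that yields cholesterol, was also higher, at 220.3 CPM in NC, 249.4 with miR-182-5p and 237 with miR-183-5p (1.13, 1.11 to 1.16).

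The SREBP regulators held the largest single difference. SREBF1 encodes SREBP-1, the form best known for fatty acid synthesis; it had 167 CPM in NC, 247 with miR-182-5p and 206 with miR-183-5p. That is 1.48 times NC (1.44 to 1.52) for miR-182-5p and 1.23 times (1.201 to 1.26) for miR-183-5p, the highest ratio of the 28 genes in both. SREBF2 encodes SREBP-2, the form best known for cholesterol synthesis, and had 221, 237 and 227 CPM, a ratio of 1.07 (1.05 to 1.099) for miR-182-5p. Thus the SREBP genes differed in size although not in direction. SREBF1 hosts MIR33B and SREBF2 hosts MIR33A on the same strand; MIR33B had 1 count with miR-183-5p and 0 in each of the others.

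INSIG1, itself a classical SREBP target that retains SCAP, was high with miR-182-5p: 79.9 CPM in NC, 105 with miR-182-5p and 77.2 with miR-183-5p (1.31, 1.27 to 1.36). INSIG2, its paralogue, had 32.1, 33.5 and 26.5 CPM in the same order (1.04, 0.982 to 1.11), and so was level with miR-182-5p and low with miR-183-5p. SCAP, the SREBP escort, had 76.2 CPM in NC, 86.9 with miR-182-5p and 80.7 with miR-183-5p (1.14, 1.097 to 1.19). Of these 5 regulators, 4 had CPM intervals above 1 and 0 below 1 for miR-182-5p against NC, beside 36.3% and 38.5% of all measured genes.

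Transport and storage genes were higher with miR-182-5p except for NPC2. STARD4, a soluble sterol carrier that SREBP-2 is known to switch on, had 67.1 CPM in NC, 91.8 with miR-182-5p and 67.2 with miR-183-5p (1.37, 1.31 to 1.42). NPC1, the lysosomal membrane exporter, had 91.6, 124 and 96.5 CPM (1.36, 1.31 to 1.40). NPC2, the soluble lysosomal protein that hands cholesterol to NPC1, was lower in both microRNA libraries, at 77.5, 67.9 and 67.7 CPM (0.875, 0.840 to 0.912). SOAT1, which esterifies cholesterol for storage, had 64.9, 75.0 and 66.65 CPM (1.155, 1.11 to 1.205). STARD4 is overlapped on the opposite strand by STARD4-AS1, which had 619 counts in NC and 1313 with miR-182-5p, and NPC1 by RMC1 over 25639 bases (1081 and 1253 counts); the part of these in the ratios was not tested.

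**Figure D2:**
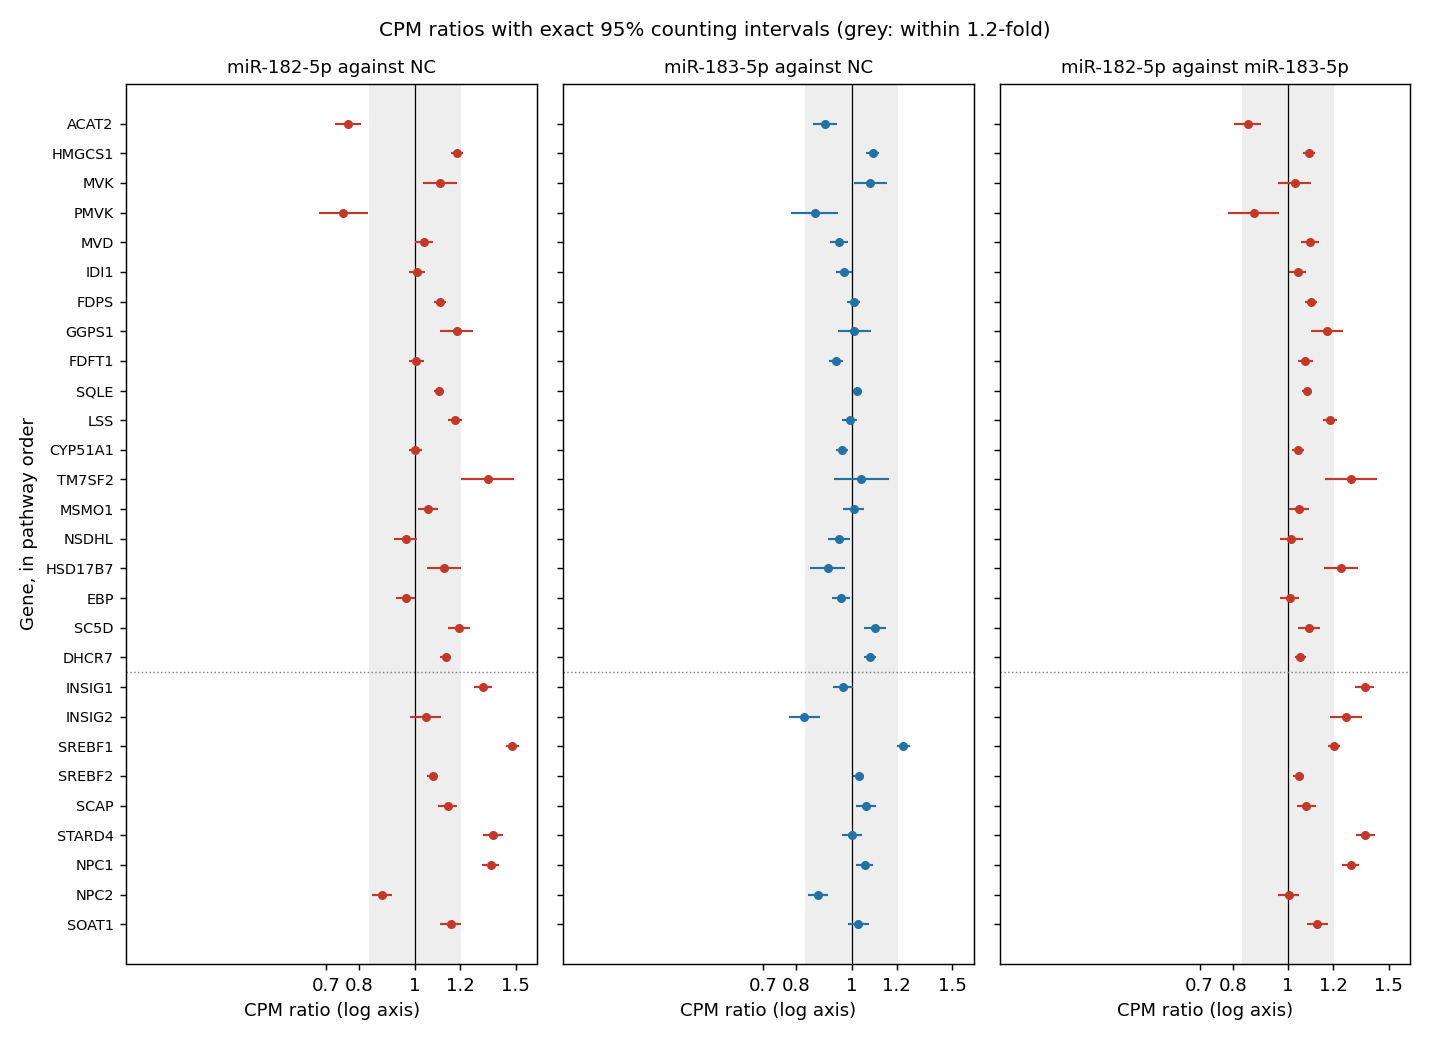
CPM ratios (log axis) of the 28 genes with exact 95% counting intervals for miR-182-5p against NC, miR-183-5p against NC and miR-182-5p against miR-183-5p; the grey band is within 1.2-fold. Outside the band on the left are SREBF1, STARD4, NPC1, TM7SF2 and INSIG1 (higher) and PMVK and ACAT2 (lower), and in the middle panel SREBF1 and INSIG2.

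Another comparison set the miR-183-5p library against the same NC library, so a value of NC moves both comparisons. Here the genes lay around NC: 15 of 28 ratios were above 1 and 13 below, beside 43.1% of all 12926 measured genes above 1. The median ratio was 1.005 (0.01 on the log2 scale), beside -0.03 on the log2 scale for all measured genes. Intervals lay above 1 for 9 genes (32.1%), beside 25.1% of all, and below 1 for 10 (35.7%), beside 37.4%. Both shares are near the background. At least 1.2-fold higher was SREBF1 alone (3.57%, beside 11.5%) and at least 1.2-fold lower was INSIG2 alone (3.57%, beside 11.3%), at 0.827 (0.776 to 0.882). INSIG2 did not pass 1.2-fold with mitochondrially encoded genes left out (0.853) or on the FPKM plus 1 scale (0.860).

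Besides SREBF1, the intervals above 1 belonged to SC5D at 1.0998 (1.05 to 1.15), HMGCS1 at 1.09 (1.06 to 1.12), DHCR7 and MVK, both at 1.08, SCAP at 1.06, NPC1 at 1.05, SREBF2 at 1.03 and SQLE at 1.02. Besides INSIG2, those below 1 belonged to PMVK at 0.862 (0.785 to 0.946), NPC2 at 0.873 (0.839 to 0.909), ACAT2 at 0.899 (0.856 to 0.944), HSD17B7 at 0.908 (0.846 to 0.975), FDFT1 at 0.939, MVD and NSDHL, both at 0.951, EBP at 0.958 and CYP51A1 at 0.963. INSIG1 at 0.966 (0.930 to 1.005) and STARD4 at 1.002 (0.961 to 1.04), both among the highest with miR-182-5p, had intervals that reach 1. Of the 8 mevalonate and isoprenoid enzymes, 2 intervals were above and 3 below 1, and of the 11 sterol enzymes 3 were above and 5 below.

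A further comparison set the microRNA libraries directly against each other. Of the 28 genes, 26 had a higher CPM with miR-182-5p, beside 53.9% of all measured genes. The exceptions were ACAT2 at 0.849 (0.805 to 0.896) and PMVK at 0.870 (0.785 to 0.963). With TMM or median-of-ratios scaling 18 of the 28 were above 1 and 10 below. At least 1.2-fold higher were then 5 (SREBF1 and HSD17B7 no longer), and at least 1.2-fold lower 2 (ACAT2 and PMVK). With TMM 13.7% of all measured genes were higher by this rule and 16.4% lower, and with median-of-ratios 13.8% and 16.2%. In CPM, intervals lay above 1 for 22 genes (78.6%), beside 35.8% of the 13308 measured genes, and below 1 for 2 (7.14%), beside 29.8%. At least 1.2-fold higher were 7 genes (25.0%, beside 18.4%) and at least 1.2-fold lower were 0 (beside 9.7%). The 7 were STARD4 at 1.365 (1.31 to 1.42), INSIG1 at 1.36 (1.31 to 1.41), TM7SF2 at 1.29 (1.16 to 1.43), NPC1 at 1.29 (1.24 to 1.33), INSIG2 at 1.26 (1.18 to 1.35), HSD17B7 at 1.24 (1.15 to 1.33) and SREBF1 at 1.202 (1.17 to 1.23). All 5 SREBP regulators had CPM intervals above 1 (median ratio 1.202), and 9 of the 11 sterol enzymes did (median ratio 1.07). With TMM scaling every log2 ratio moved by -0.07, a shift larger in size than the 0.0614 of SREBF2. The counts of intervals are therefore given for CPM alone and need not hold with TMM. With mitochondrially encoded genes left out of the total, 26 of the 28 ratios were again above 1. The same 7 genes were then at least 1.2-fold higher, beside 19.5% of all measured genes, and 0 lower, beside 8.95%. NPC2 was level at 1.002 (0.961 to 1.05), as were NSDHL and EBP, both at 1.01, and MVK at 1.03 had an interval that includes 1.

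Across all 13423 measured genes the log2 ratio for miR-182-5p against NC had a Spearman's rho of -0.34 with mean FPKM; over the 28 genes it was also -0.34. For miR-183-5p these were -0.19 and -0.03. The part of the expression level in the ratios was not tested. Most of the 28 genes are well expressed: when all measured genes were parted by mean FPKM into 3 equal groups, a grouping chosen after seeing the data, 22 lay in the highest (at least 8.13). There, 9.99% of all 4474 genes were at least 1.2-fold higher with miR-182-5p than NC and 30.1% at least 1.2-fold lower, with a median log2 ratio of -0.14. The 22 genes had 4 higher (18.2%) and 2 lower (9.09%) and a median of 0.12, and 19 of 22 lay above the median of those genes. For miR-183-5p the same genes had 3.11% higher and 8.20% lower with a median of -0.07, and the 22 genes had 1 higher and 0 lower with a median of -0.0043.

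With 3 such groups by implied length, the lowest (up to 3664 bases) had a median log2 ratio of -0.06 for miR-182-5p against NC and the highest (from 7197 bases) 0.05. The 6 of the 28 genes in the lowest group were ACAT2, PMVK, MSMO1, NSDHL, EBP and NPC2, with a median of -0.12; they include all 3 genes with intervals below 1. The 13 in the middle group had a median of 0.15 and the 9 in the highest 0.23. Spearman's rho between implied length and the log2 ratio was 0.64 over the 28 genes, beside 0.09 over 13423 measured genes; with miR-183-5p it was 0.63 and 0.10. These are descriptions across genes that share the same 2 libraries, and the part of length in the ratios was not tested.

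**Figure D3:**
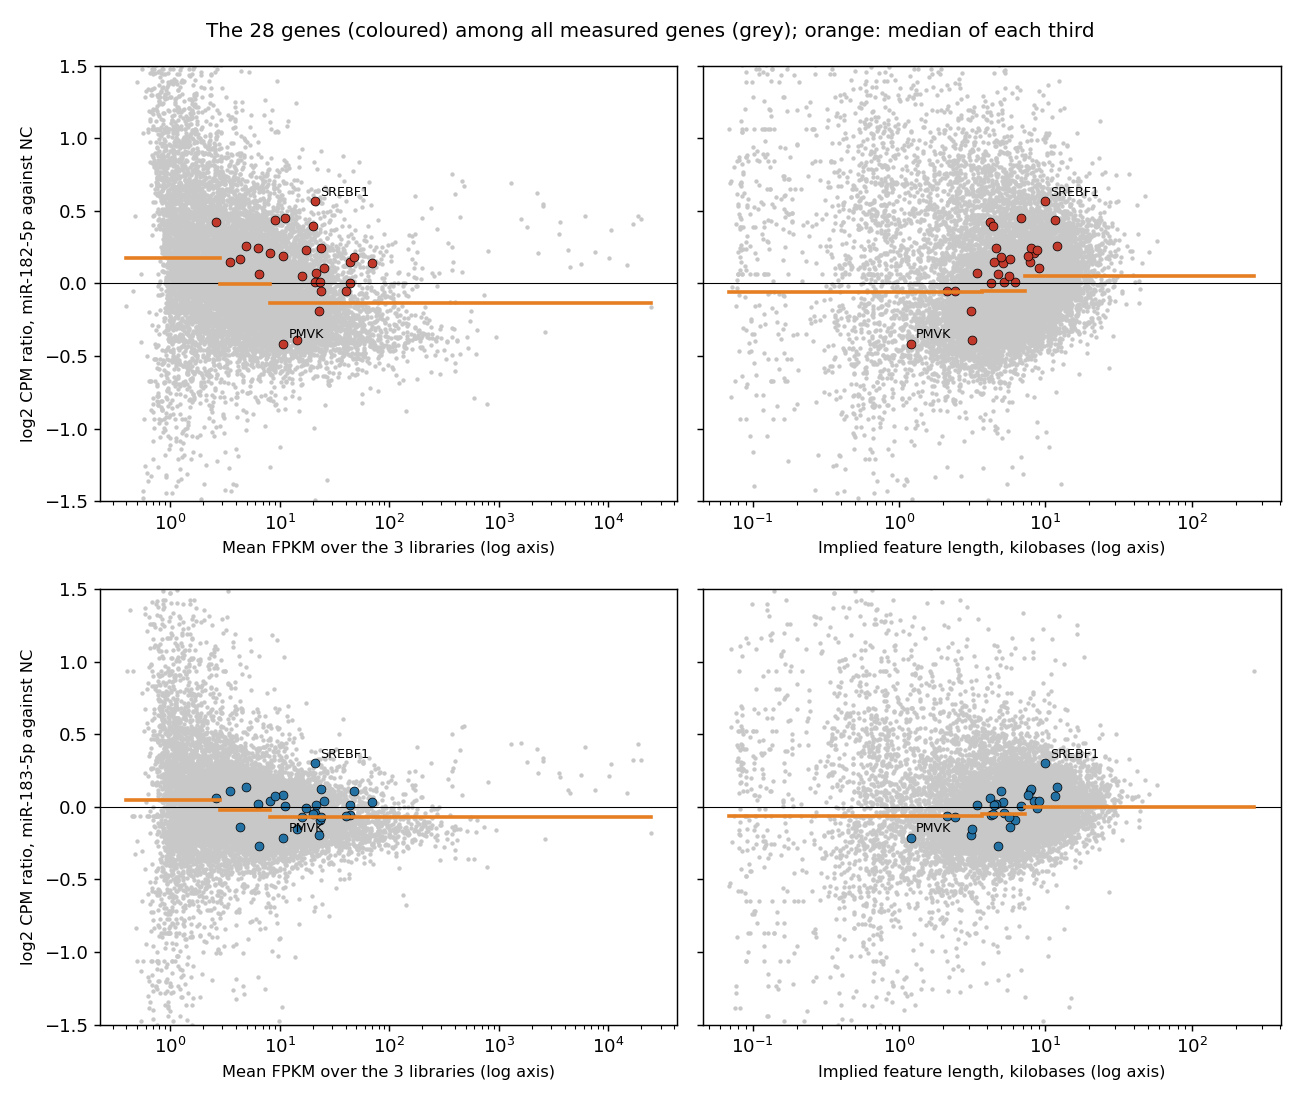
The log2 CPM ratio to NC (upper row miR-182-5p, lower row miR-183-5p) against mean FPKM (left, log axis) and implied length (right, log axis) for the 28 genes (coloured) and all measured genes with counts in each library (grey), with orange bars at the median within the lowest, middle and highest groups of equal size; genes beyond 1.5 in either direction are not drawn. With miR-182-5p most coloured points lie above the orange bar of the highest expression group, at -0.14, while PMVK lies below it.

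The promoters were read to see what the genes share besides their place in the pathway. RefSeq windows of 300 bases, 250 before and 50 after the transcript start (GRCh38.p14), were matched for 25 of the 28 genes, 34 windows in all. The sterol element core TCACNCCAC was found on either strand in 1 of 34 windows (2.94%), that of SREBF2, beside 1.12% of 13092 windows of measured genes and 1.13% of all 35116. The E-box CACGTG was in 5 (14.7%, beside 9.75% and 7.26%), the CCAAT box, bound by NF-Y, in 21 (61.8%, beside 35.1% and 34.6%) and the GC box GGGCGG, bound by SP1, in 31 (91.2%, beside 67.15% and 44.95%). Both strands were searched, the E-box reads the same on both, and GC boxes may overlap. Windows of the same gene overlap in part, so they are not independent, and a match is a description, not a site. Only exact matches to these letters within these windows were searched. Other forms or places of a sterol element are not covered, so a window without a match may still hold one.

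Shown are the windows of the SREBP genes, of INSIG1 and of STARD4, since SREBF1, INSIG1 and STARD4 had among the largest ratios and SREBF2 holds the sterol element match; capitals mark matches to these 4 motifs. The windows lie at chr17:17836937-17837236 (minus) for SREBF1, chr22:41832855-41833154 (plus) for SREBF2, chr7:155297628-155297927 (plus) for INSIG1 and chr5:111512486-111512785 (minus) for STARD4.
SREBF1: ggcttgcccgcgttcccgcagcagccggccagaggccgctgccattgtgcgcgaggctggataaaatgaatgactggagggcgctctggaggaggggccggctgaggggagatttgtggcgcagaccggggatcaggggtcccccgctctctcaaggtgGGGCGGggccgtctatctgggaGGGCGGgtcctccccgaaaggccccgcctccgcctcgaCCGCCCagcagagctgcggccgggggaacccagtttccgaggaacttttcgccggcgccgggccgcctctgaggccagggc
SREBF2: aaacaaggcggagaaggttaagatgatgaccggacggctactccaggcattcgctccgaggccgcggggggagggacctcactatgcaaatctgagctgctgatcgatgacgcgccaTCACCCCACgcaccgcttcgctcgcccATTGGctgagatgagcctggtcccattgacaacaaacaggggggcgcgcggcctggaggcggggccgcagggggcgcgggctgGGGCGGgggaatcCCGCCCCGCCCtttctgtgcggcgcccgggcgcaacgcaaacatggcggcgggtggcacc
INSIG1: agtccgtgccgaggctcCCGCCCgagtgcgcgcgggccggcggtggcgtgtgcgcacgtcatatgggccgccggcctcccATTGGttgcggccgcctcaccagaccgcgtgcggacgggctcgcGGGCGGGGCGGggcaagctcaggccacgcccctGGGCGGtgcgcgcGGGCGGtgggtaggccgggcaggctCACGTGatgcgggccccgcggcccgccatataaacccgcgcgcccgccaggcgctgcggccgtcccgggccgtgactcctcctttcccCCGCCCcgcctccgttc
STARD4: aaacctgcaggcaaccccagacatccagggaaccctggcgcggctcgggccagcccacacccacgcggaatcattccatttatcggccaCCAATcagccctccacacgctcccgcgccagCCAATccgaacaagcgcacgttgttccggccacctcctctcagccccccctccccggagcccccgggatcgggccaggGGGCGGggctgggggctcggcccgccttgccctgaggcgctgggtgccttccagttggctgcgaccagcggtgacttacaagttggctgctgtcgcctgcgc
In SREBF2 the match TCACCCCAC spans -133 to -125 relative to the start, followed by a CCAAT box on the other strand at -106 to -102. INSIG1 holds an E-box at -55 to -50 and a CCAAT box at -170 to -166, and STARD4 holds 2 CCAAT boxes, at -161 to -157 and -130 to -126. SREBF1, with the highest ratio in both microRNA libraries, holds GC boxes alone of the 4 motifs in this window. No other window of SREBF1 was matched, so any other start of the gene was not read.

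Other lists of pathway genes were measured beside the 28; their counts stand beside 24.3% of all measured genes at least 1.2-fold higher and 20.5% lower with miR-182-5p, and 11.5% and 11.3% with miR-183-5p. These lists are short, and nothing particular to a list is read from its count. Oxysterol sensing and efflux genes (5 measured of 7 in the file) had 2 at least 1.2-fold higher and 1 lower with miR-182-5p: the sterol exporter ABCG1 at 1.72 (1.56 to 1.899), the lipoprotein receptor ligase MYLIP at 1.54 (1.42 to 1.66) and the nuclear receptor RXRA at 0.795 (0.769 to 0.822). ABCG1 and MYLIP are classical targets of the liver X receptors, which oxysterols activate. MYLIP was also higher with miR-183-5p, at 1.23 (1.13 to 1.33). Of the 4 measured genes in the fatty acid arm of SREBP, the desaturase SCD was at 1.44 (1.42 to 1.45) with miR-182-5p and 1.23 (1.22 to 1.24) with miR-183-5p, and the list medians were 0.24 and 0.15 on the log2 scale. ACSS2, which makes cytosolic acetyl-CoA from acetate, was at 1.51 (1.41 to 1.61) with miR-182-5p. The other acetyl-CoA supply genes, ACLY at 0.935 (0.919 to 0.952) and SLC25A1 at 0.944 (0.926 to 0.961), had intervals below 1, and the median of the 3 was -0.08 on the log2 scale.

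Of 13 measured isoprenoid branch genes, 0 were at least 1.2-fold higher and 3 lower with miR-182-5p, among them the prenylcysteine methyltransferase ICMT at 0.759 (0.733 to 0.786), and the median was -0.16. Intervals lay below 1 for 8 of the 13, beside 38.5% of all measured genes, and above 1 for 1, the Rab prenylation subunit RABGGTB at 1.15 (1.12 to 1.18), beside 36.3%. With miR-183-5p none of the 13 was past 1.2-fold and the median was -0.11. SREBP processing and sterol-regulated degradation genes (13 measured) had 1 past 1.2-fold with miR-182-5p, the ubiquitin ligase MARCHF6 at 1.24 (1.22 to 1.27), and 0 with miR-183-5p. Intracellular sterol transport and storage genes (12 measured) had 2 higher, the sterol transporters GRAMD1A at 1.28 (1.14 to 1.43) and GRAMD1B at 1.26 (1.197 to 1.33), and 1 lower, TMEM97 at 0.821 (0.793 to 0.851), with miR-182-5p. Among 5 measured lipoprotein receptors and adaptors, LRP1 was at 1.34 (1.31 to 1.36) and the sorting nexin SNX17 at 0.801 (0.761 to 0.843) with miR-182-5p, and 0 of 5 were past 1.2-fold with miR-183-5p.

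**Figure D4:**
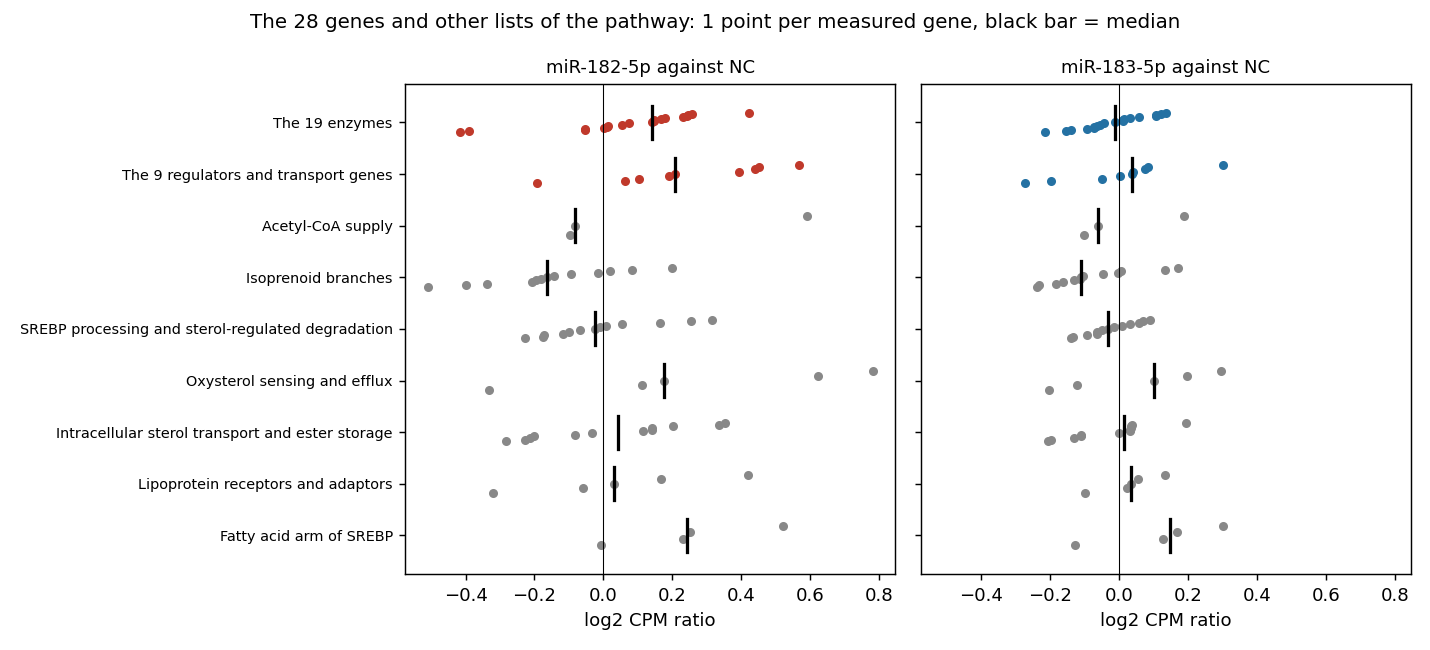
The log2 CPM ratio to NC of each measured gene (1 point per gene) in the 28 genes, split into 19 enzymes and 9 regulators and transport genes, and in 7 other lists of the pathway, with the median as a black bar, for miR-182-5p (left) and miR-183-5p (right). The medians with miR-182-5p run from -0.16 for the isoprenoid branches to 0.24 for the fatty acid arm, with 0.14 for the enzymes and 0.21 for the regulators and transport genes.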

How the data were processed

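Total RNA of QBC-939 cells was sequenced, 1 library per group, per the labels. The authors deposited raw gene counts and FPKM values in the same table, per the file headers; how FPKM was computed is not stated. The submitters' processing notes name cutadapt 1.9, FastQC and the build GRCm38, a mouse assembly, although the gene identifiers are human. For the aligner, the counter and strand handling: not given in the sources used here. CPM is the count over the library total of 61709874, 67427313 or 64516706 (miR-182-5p, miR-183-5p, NC). A gene counted as measured if either library reached an FPKM of 1, and 1.2-fold is a rule of size. Intervals (scipy 1.17.1) are conditional on the sum of 2 counts. Reads are not shown to be independent molecules, so intervals are minimal. Implied length is CPM over FPKM in the NC library, right up to a constant factor. TMM factors came from edgeR 4.0.16, used for scaling alone. The interval procedure was run on simulated counts that hold counting error alone and no spread between cultures, so that run bears only on the computation. All 28 genes were named. For other lists, up to 2 genes per direction past 1.2-fold were named, except 1 that is not reported here; ACLY, SLC25A1 and RABGGTB were named after their values were seen. The genes and lists were chosen with earlier results of these data known; the grouping of all genes by level and length, and the split into enzymes and regulators, were chosen after seeing the data. The alternatives were other scalings, FPKM with pseudocounts, filters, folds and leaving out genes that overlap on the same strand.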

Additional observations from a re-analysis of the deposited data

How the results depend on the processing

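For miR-182-5p against NC, the 5 higher genes became 10 and the median log2 ratio 0.15 became 0.20 when mitochondrially encoded genes were left out of the total; the median was 0.0862 with TMM and 0.0840 with median-of-ratios scaling, where the median of all genes lay at -0.07. Under these 3 scalings the same 7 genes stayed past 1.2-fold. At 1.1-fold 16 genes were higher, and at 1.5-fold 0 were higher and 0 lower. For these folds, here and below, the share of all measured genes is not given, so nothing is read from the counts. For miR-183-5p against NC, INSIG2 was no longer past 1.2-fold (0 lower) without mitochondrial genes or with FPKM plus 1 or plus 0.1. There, 5 genes were lower at 1.1-fold, and 0 were higher and 0 lower at 1.5-fold. Leaving out genes that overlap on the same strand gave 0 higher, because SREBF1 overlaps MIR33B and MIR6777 on its strand. Between the microRNA libraries, TMM and median-of-ratios scaling gave 2 lower genes (ACAT2 and PMVK), beside 16.4% and 16.2% of all measured genes, and medians of 0.0433 and 0.0446. A fold of 1.1 also gave 2 lower, and 1.5-fold gave 0 higher. The 9 regulators and transport genes alone, a split chosen after seeing the data, had medians of 0.208 for miR-182-5p against NC and 0.265 against miR-183-5p. With 8-base sites 2 genes in place of 5 held a miR-182-5p match. No value of a gene past 1.2-fold changed sign under any alternative. No paired analysis was possible because each group has 1 library.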

Other observations

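Some transcripts that overlap these genes had larger ratios than the genes themselves; those below were picked after their values were seen, and others, such as RAI1 opposite SREBF1 (1.03 times NC with miR-182-5p) and RMC1 opposite NPC1 (1.21), had smaller ones. STARD4-AS1 had 9.59 CPM in NC, 21.3 with miR-182-5p and 21.4 with miR-183-5p, so it was higher in both microRNA libraries (2.22 and 2.23 times NC), whereas STARD4 was higher with miR-182-5p and level with miR-183-5p. IDI2-AS1, which overlaps IDI1 by 6274 bases, had 321 counts in NC, 566 with miR-182-5p and 95 with miR-183-5p, while IDI1 was at 1.01 and 0.971 times NC. RUSC1-AS1, which overlaps FDPS by 3804 bases, had 1159, 1934 and 1488 counts in the same order. AC000120, on the strand of CYP51A1, had 339 counts in NC, 13 with miR-182-5p and 33 with miR-183-5p, beside 12022, 11519 and 12097 for CYP51A1. Whether these reads come from the named transcripts was not tested.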
